A study of Oryza sativa with 3 samples.

Results

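The miR156, miR529 and miR535 families were examined in small RNA libraries from embryos of germinating rice (Oryza sativa, cultivar Nipponbare). Members were all mature sequences that the table of known miRNAs lists under these 3 families, each counted once, together with their listed precursors. They came to 5 of 59 known mature sequences, and 5 of 289 when the predicted miRNAs named OsmiR were included. Their precursors came to 10 of 83 known precursors and of 407 in all. miR156 was represented by 3 mature forms from 8 precursors, and miR529 and miR535 by 1 form from 1 precursor each.

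Embryos came from dry seed (0 HAI, hours after imbibition) and from seed kept wet in darkness at 30 °C for 12 and 24 h (12 and 24 HAI). There was 1 library per time point, made from RNA of 4 plates with 50 seeds each that was mixed before library construction. No difference between libraries below therefore has a replicate check, and no p-value is given. The study also measured some of the members by real-time RT-PCR with biological replicates, which was not analysed here. Ratios between libraries carry exact conditional 95% limits and shares carry Wilson 95% intervals, and both cover counting error only. They treat reads as independent, and because the libraries were amplified by PCR, they may be too narrow even for that. Fewer cells of a type and less of a miRNA per cell cannot be told apart in these whole embryos. The libraries held 285143, 634097 and 590212 miRNA reads at 0, 12 and 24 HAI, of 19203513, 22332607 and 17359816 genome-mapped reads. Levels are given in TPM, here reads per 1000000 genome-mapped reads, and 1 read corresponded to 0.0521, 0.0448 and 0.0576 TPM.

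In plants, miRNAs are cut from hairpin precursors by the enzyme DCL1 as a duplex, of which 1 strand is usually loaded into an Argonaute protein while the other strand is lost. miR156 pairs with mRNAs of the SQUAMOSA PROMOTER BINDING PROTEIN-LIKE (SPL) transcription factors and holds plants in the juvenile phase. In rice, miR156 and miR529 act on OsSPL14, which controls tiller number and panicle branching, and miR535 also targets SPL mRNAs. miR172, which acts opposite to miR156 in the age pathway, was not among the listed families of known miRNAs.

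The 5 mature sequences are given first, since the forms of miR156 differ from each other in arm and in start base. Capitals mark the seed, bases 2 to 8 from the 5′ end, and the sequences are written as deposited, with T for U.
osa-miR156abcei: tGACAGAAgagagtgagcac
osa-miR156dj: tTGACAGAagagagtgagcac
osa-miR156l: gCTCACTTctctttctgtcagc
osa-miR529a: aGAAGAGAgagagtacagcct
osa-miR535: tGACAACGagagagagcacgc

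osa-miR156abcei (20 nt) and osa-miR156dj (21 nt) come from the 5′ (5p) arm of their hairpins. The 21-nt form is the 20-nt form with 1 more base at its 5′ end, which shifts the seed by 1 base. osa-miR156l (22 nt) comes from the 3′ (3p) arm and resembles the opposite strand of the duplex. osa-miR529a and osa-miR535 (21 nt each) are 5p forms. osa-miR535 begins with the same 5 bases (TGACA) as the 20-nt miR156 form, and the last 6 bases of that form (GAGCAC) occur in osa-miR535 from base 14. osa-miR529a, aligned from base 5 of the 20-nt miR156 form, was identical to it at 14 of 16 bases, with T14A and C18T as the differences (base of the miR156 form first, positions from its 5′ end). None of the 5 seeds occurred in another listed mature sequence.

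An exact search of all listed precursors for each form showed which listed loci hold its sequence. Reads were matched to known miRNAs with up to 2 mismatches, so reads from other loci may be included, which was not tested. The 21-nt form lay only in osa-MIR156d (chr2:4512907-4512994, minus strand) and osa-MIR156j (chr6:26554835-26554924, plus strand), both annotated as exonic in MSU 7.0. The 20-nt form lay in 7 known precursors. These were the same 2 and osa-MIR156c (chr1:4666003-4666095, plus), osa-MIR156b (chr1:4666383-4666470, plus), osa-MIR156a (chr1:22524150-22524240, minus), osa-MIR156i (chr2:24119995-24120082, minus) and osa-MIR156e (chr4:25026334-25026421, minus). osa-MIR156c and osa-MIR156b are exonic and lie 287 bases apart on the same strand, whereas osa-MIR156a, osa-MIR156i and osa-MIR156e are intergenic. The reads of the 20-nt form can therefore not be assigned to a single locus. osa-MIR156l (chr5:5230619-5230756, plus), osa-MIR529a (chr2:16227807-16227903, plus) and osa-MIR535 (chr11:16290533-16290618, minus) are intergenic, and each was the only listed known precursor with its mature form.

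The 10 precursors measured 86 to 138 nt, with osa-MIR535 the shortest and osa-MIR156l the longest. Their G+C content, computed from the listed sequences, ran between 39.1% in osa-MIR156l and 68.6% in osa-MIR535. The deposited folding energies (MFE, where a more negative score is a more stable fold) lay between -60.9 kcal/mol in osa-MIR156e and -44.1 kcal/mol in osa-MIR529a. The precursors osa-MIR156i and osa-MIR156e were near copies, with 83 of 88 bases identical. The first 20 bases of osa-MIR156l, at the other end of the hairpin from its mature form, differ from the 20-nt miR156 form by T1C and C20T. That sequence is not among the mature sequences of the tables. Whether its reads were counted for the 20-nt form was not tested.

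Further strands of miR156 hairpins were found among the predicted miRNAs. OsmiR-68 lay in the 3p arm of osa-MIR156i, whose locus the table of predicted miRNAs lists again at the same coordinates, and OsmiR-55 lay in the 3p arm of osa-MIR156d. The 3 hairpins with a listed 3p strand are shown because the largest TPM ratios of 24 to 0 HAI, those of osa-miR156l and OsmiR-68, fell on that arm. OsmiR-55 lies on the same arm but was not shown to differ from the 5p forms. Capitals mark the listed mature forms.
osa-MIR156l: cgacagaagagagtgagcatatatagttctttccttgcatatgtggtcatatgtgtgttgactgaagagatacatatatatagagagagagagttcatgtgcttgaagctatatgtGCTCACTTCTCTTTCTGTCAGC
osa-MIR156i: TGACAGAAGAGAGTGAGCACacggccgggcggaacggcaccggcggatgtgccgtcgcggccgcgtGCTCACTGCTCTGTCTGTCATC
osa-MIR156d: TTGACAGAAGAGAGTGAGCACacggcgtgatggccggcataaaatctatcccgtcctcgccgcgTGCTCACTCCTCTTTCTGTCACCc

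In the RNAfold structure of osa-MIR156i, 18 of the 22 bases of OsmiR-68 were paired with the 5p form, and in osa-MIR156d, 19 of the 23 bases of OsmiR-55. osa-miR156l had 17 of 22 bases paired in its own hairpin. The 3p strands are close relatives of each other. osa-miR156l and OsmiR-68 were identical at 19 of 22 bases (T8G, T13G and G21T), and osa-miR156l and OsmiR-55 at 20 of 22 aligned bases (T8C and G21C). Reads were matched to known miRNAs with up to 2 mismatches, and whether reads of 1 strand were counted for another was not tested. A further predicted sequence, OsmiR-88, is antisense to the 5p arm of 7 miR156 precursors, and its 2 listed loci lie opposite osa-MIR156b and osa-MIR156e.

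miR156 was among the most abundant families of the embryo at all times. Its reads numbered 76992, 144947 and 123157 at 0, 12 and 24 HAI, or 4009, 6490 and 7094 TPM. The family ranked 1st of 42 at 0 and 12 HAI and 2nd at 24 HAI. miR156 held 27.0% (26.8–27.2%) of all miRNA reads in dry seed embryos, 22.9% (22.8–23.0%) after 12 h and 20.9% (20.8–20.97%) after 24 h. The intervals of the 3 shares did not overlap, and the share was lower at each later time although the TPM was higher.

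The 2 abundant forms of miR156 had similar levels. The 20-nt osa-miR156abcei had 33922, 64415 and 57524 reads, or 1766, 2884 and 3314 TPM, at 0, 12 and 24 HAI. The 21-nt osa-miR156dj had 43067, 80489 and 65482 reads, or 2243, 3604 and 3772 TPM. The 21-nt form was the higher at every time, and these forms ranked 2nd to 5th of the 289 miRNAs throughout.

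miR535 had 5913, 12305 and 8115 reads, or 308, 551 and 467 TPM, so that its highest level was at 12 HAI. It ranked 9th of the 42 families in every library. miR529 had 167, 302 and 503 reads, or 8.70, 13.5 and 29.0 TPM, and was highest at 24 HAI. It ranked 24th, 31st and 23rd. The lowest member was osa-miR156l with 3, 43 and 151 reads, or 0.156, 1.93 and 8.70 TPM. Its place among the 289 miRNAs was 235th, 140th and 74th. Together the 5 members held 29.1%, 24.8% and 22.3% of the miRNA reads, and miR156 made up 92.7%, 92.0% and 93.5% of the members' reads.

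**Figure D1:**
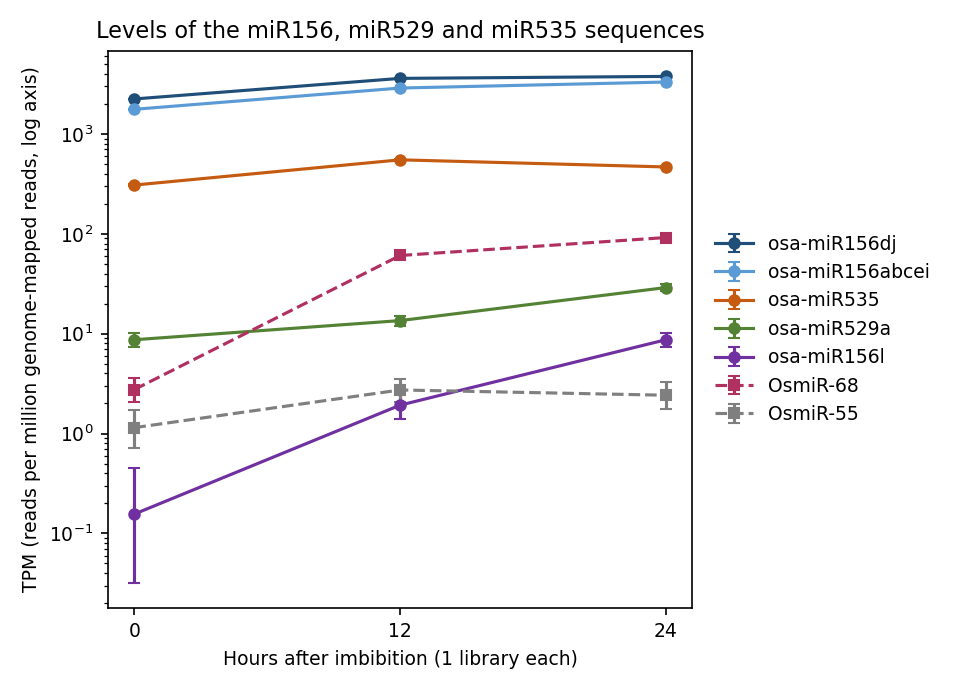
Levels of the 5 members and of the 3p strands OsmiR-68 and OsmiR-55 at 0, 12 and 24 hours after imbibition, in TPM on a log axis, with 1 library per time point. Bars are exact Poisson 95% limits of the count. The miR156 5p forms stayed within 1766 to 3772 TPM, while OsmiR-68 was at 2.76, 60.7 and 91.8 TPM and osa-miR156l at 0.156, 1.93 and 8.70 TPM.

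The ratio of 24 to 0 HAI was read first, as the longest interval of imbibition. By TPM, all 5 members were higher at 24 HAI, and 2 of 5 had a ratio over 2 between this pair of libraries, namely osa-miR156l and osa-miR529a. None was under 0.5. A ratio over 2 was also found for 143 of the 289 miRNAs (49.5%) and for 33 of the 59 known miRNAs (55.9%), and a ratio under 0.5 for 7 of 289 (2.42%), together 51.9%, so the count of members was near the background. The median ratio was 1.88 over the members and 1.99 over the 288 miRNAs with a ratio, since OsmiR-167 had too few reads for one and was counted as not past the threshold. The median over all miRNAs is a shift of 0.99 on the log2 scale.

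Relative to that shift, the families went different ways. miR156 had a ratio of 1.77 (1.75–1.79) by TPM, with 0.773 when scaled to the summed miRNA reads, 0.883 with TMM factors and 0.889 with DESeq2 size factors, so its direction turned under these 3 scalings. miR535 had 1.52 (1.47–1.57) by TPM, against 0.663, 0.758 and 0.763 under the same 3 scalings, and turned likewise. miR529 had 3.33 (2.79–3.99) by TPM, and remained above 1 at 1.46 (1.22–1.74), 1.66 (1.39–1.99) and 1.67 (1.40–2.01), but no longer over 2. osa-miR156l had 55.7 (18.7–273) by TPM, with 24.3 (8.16–119), 27.8 and 27.99 under the other scalings. The width of its limits comes from the 3 reads at 0 HAI. By the size of this ratio, osa-miR156l stood 9th of 289 miRNAs and 3rd of 59 known ones, osa-miR529a 70th and 24th, osa-miR156abcei 164th and 37th, osa-miR156dj 176th and 38th, and osa-miR535 204th and 44th. With all miRNAs, the split over 2 against under 0.5 was 143 to 7 by TPM, 49 to 33 by summed miRNA reads, 62 to 24 by TMM and 63 to 23 by DESeq2.

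**Figure D2:**
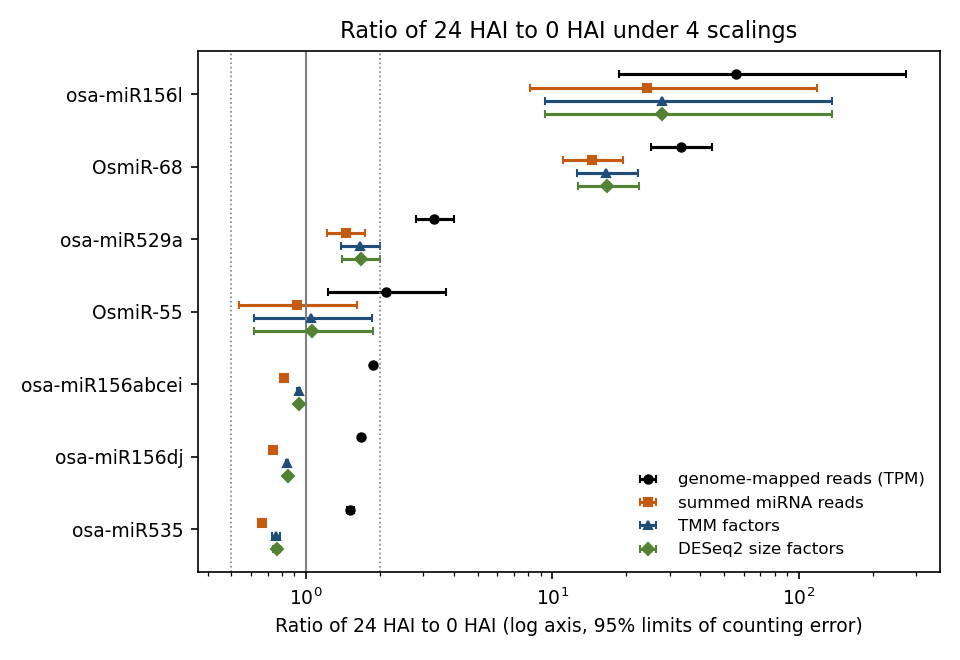
Ratio of 24 HAI to 0 HAI (log axis) for the members and the 3p strands OsmiR-68 and OsmiR-55, under 4 scalings of the same reads. Bars are exact 95% limits of counting error, the solid line marks 1 and the dotted lines 0.5 and 2. osa-miR156l, OsmiR-68 and osa-miR529a lie above 1 under every scaling, whereas osa-miR156abcei, osa-miR156dj and osa-miR535 lie above 1 by TPM and below 1 under the other 3.

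By TPM, most of the difference of miR156 lay in the first 12 h. For 12 against 0 HAI, the TPM ratio was 1.62 (1.60–1.63) for miR156, 1.79 (1.73–1.85) for miR535 and 1.56 (1.28–1.89) for miR529. Under the summed miRNA reads these ratios became 0.847, 0.936 and 0.813, and the median over all miRNAs changed likewise, with 1.76 by TPM and 0.922 by miRNA reads. osa-miR156l was the only member over 2, at 12.3 (3.94–62.1), which is 1 of 5 against 37.5% of 288 miRNAs and 44.1% of the known ones. No member was under 0.5, as were 1.74% of all miRNAs, and 39.2% passed 2-fold in either direction. The median ratio was 1.63 over the members.

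Between 12 and 24 HAI the 3 families parted. miR529 had a TPM ratio of 2.14 (1.85–2.48), miR156 of 1.09 (1.08–1.10) and miR535 of 0.848 (0.825–0.873). The ratio of miR529 stayed above 1 under the other 3 scalings but not over 2, with 1.79 by summed miRNA reads, that of miR535 stayed below 1 at 0.709, 0.742 and 0.770 by summed miRNA reads, TMM and DESeq2, and that of miR156 turned to 0.913, 0.956 and 0.992. Its 20-nt form alone turned only by summed miRNA reads (0.959), with 1.004 (0.993–1.016) by TMM and 1.04 (1.03–1.05) by DESeq2. Over 2 were osa-miR529a and osa-miR156l, 2 of 5 members, against 13.8% of 289 miRNAs and 15.3% of the known ones. None was under 0.5, against 5.19% of all miRNAs, of which 19% passed 2-fold in either direction. osa-miR156l had 4.52 (3.20–6.50). The median ratio was 1.15 over the members and 1.12 over all miRNAs. The comparisons of 12 and of 24 HAI with dry seed share the library at 0 HAI, and are not independent of each other.

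Differences between members do not depend on the scaling, because both come from the same libraries. As odds ratios of 24 over 0 HAI, miR529 gained on miR156 by 1.88 (1.58–2.26) and on miR535 by 2.19 (1.83–2.64), and miR535 lost to miR156, at 0.858 (0.829–0.888). In the first 12 h, the odds ratio of miR529 over miR156 was 0.961 (0.792–1.17), with limits that include 1, and it was 1.96 (1.70–2.27) for 24 over 12 HAI. The odds ratio of miR535 over miR156 was 1.11 (1.07–1.14) for 12 over 0 HAI and 0.776 (0.754–0.799) for 24 over 12 HAI, so its direction changed between the intervals.

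The lengths of the miR156 5p forms shifted by little. The 21-nt form made up 55.9% (55.6–56.3%) of the miR156 reads in dry seed embryos, 55.5% (55.3–55.8%) after 12 h and 53.2% (52.9–53.4%) after 24 h. Its odds ratio over the 20-nt form was 0.897 (0.880–0.913) for 24 over 0 HAI. For 12 over 0 HAI it was 0.984 (0.967–1.002), where the upper limit includes 1, and for 24 over 12 HAI it was 0.911 (0.897–0.925). The lower share of the longer form was thus found in the 24 HAI library. Among the listed known precursors, the exact 21-nt sequence lies only in osa-MIR156d and osa-MIR156j, while the 20-nt sequence lies in 7. Reads with mismatches could come from other loci.

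Of the 3p strands of the miR156 hairpins, osa-miR156l and OsmiR-68 differed far more between libraries than the 5p forms, and OsmiR-55 was not shown to differ from them. OsmiR-68, from the hairpin of osa-MIR156i, had 53, 1355 and 1594 reads at 0, 12 and 24 HAI, or 2.76, 60.7 and 91.8 TPM. Its ratio was 33.3 (25.3–44.6) for 24 over 0 HAI and 22.0 (16.7–29.5) for 12 over 0 HAI, and the first of these stood 11th of 289. It was over 1 under all scalings, with 14.5, 16.6 and 16.7 for 24 over 0 HAI by summed miRNA reads, TMM and DESeq2. OsmiR-55, from osa-MIR156d, had 22, 61 and 42 reads, or 1.15, 2.73 and 2.42 TPM. Its ratio of 24 over 0 HAI was 2.11 (1.23–3.71) by TPM, but 0.922, 1.05 and 1.06 under the other 3 scalings. OsmiR-88, the antisense sequence, had 3, 6 and 9 reads, and its ratio of 3.32 (0.828–19.1) for 24 over 0 HAI was not distinguishable from 1 at this depth.

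Against the pooled 5p forms of the same libraries, osa-miR156l had an odds ratio of 31.5 (10.6–154) for 24 over 0 HAI, and OsmiR-68 of 18.8 (14.3–25.2). That of OsmiR-55 was 1.19 (0.697–2.10), with limits that include 1. The 5p forms lie in 7 known precursors and each of these 3p strands in 1. Neither 5p form lies in osa-MIR156l. Whether the 2 strands of a single hairpin changed against each other was therefore not tested. The odds ratio of OsmiR-55 over OsmiR-68 was 0.0638 (0.0343–0.120), so the 3p strands of these hairpins did not move alike. That of osa-miR156l over OsmiR-68 was 1.67 (0.532–8.47) for 24 over 0 HAI, which was not resolved, and 2.98 (2.10–4.33) for 24 over 12 HAI. The listed 3p strands stayed a small part of the miR156 reads. They come from osa-MIR156l, osa-MIR156i and osa-MIR156d, and no 3p strand of the other miR156 precursors is listed. The share that follows is therefore not the 3p share of all miR156 hairpins. Taken with the 5p forms, osa-miR156l, OsmiR-55 and OsmiR-68 made up 0.101% (0.0811–0.126%) of the reads in dry seed embryos, 0.997% (0.947–1.05%) after 12 h and 1.43% (1.37–1.499%) after 24 h.

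Predicted sequences were also found in known hairpins of other families, on the sense strand. Of these 5 sequences, 3 had a TPM ratio of 24 over 0 HAI over 2, against the 49.5% of all miRNAs, with a range of 1.94 to 28.2. Their median of 2.95 is the value of OsmiR-52, which had no read at 0 HAI and was set to 3 reads there, so it is a lower bound. OsmiR-68 lay above this range, and OsmiR-55 inside it. These values rest on few reads in part, and no difference from the miR156 strands is drawn from them.

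**Figure D3:**
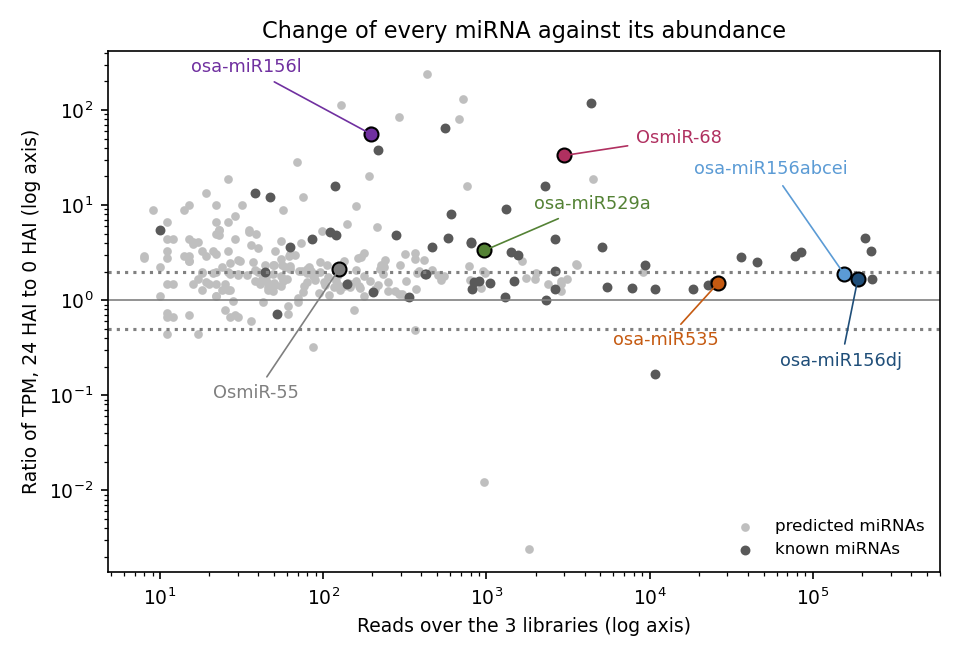
TPM ratio of 24 HAI to 0 HAI against the reads over the 3 libraries, both on log axes, for 288 of 289 miRNAs. A count of 0 was set to 3 reads, and OsmiR-167, with too few reads for a ratio, is drawn nowhere in the plot. The dotted lines mark ratios of 2 and 0.5. osa-miR156l and OsmiR-68 lie at 55.7 and 33.3, while the abundant osa-miR156abcei, osa-miR156dj and osa-miR535 lie between 1.52 and 1.88 by TPM, and below 1 under the scalings by miRNA reads.

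Among the families of conservation classes I and II, miR156 (class I) and miR535 (class II) were on the low side. Of the other 22 families in these classes, 14 had a TPM ratio over 2 for 24 over 0 HAI. The median of the 22 was 2.90, with a range of 1.30 to 16.0. For 12 over 0 HAI the median of those with enough reads for a ratio was 2.29, above the 1.62, 1.56 and 1.79 of miR156, miR529 and miR535. For 24 over 12 HAI it was 1.23, below the 2.14 of miR529 and above the 1.09 of miR156 and the 0.848 of miR535. With the classes taken apart, for 24 over 0 HAI, 11 of the 16 other class I families were over 2. Their class had a median of 2.99 and a lowest ratio of 1.32. In class II it was 3 of 6 others, with a median of 2.38 and a lowest ratio of 1.30.

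The miRNAs with the nearest time course were sought among those with at least 100 reads, as the distance between their log2 TPM ratios of 12 over 0 and 24 over 0 HAI, so over 3 time points. For miR156 these were OsmiR-212, OsmiR-43 and OsmiR-207, at distances of 0.016, 0.076 and 0.083. For miR535 they were osa-miR5814, OsmiR-48 and OsmiR-95, at 0.052, 0.055 and 0.075, and for miR529 OsmiR-81, OsmiR-91 and OsmiR-134, at 0.18, 0.33 and 0.37. Some neighbours rest on few reads, with 24, 45 and 38 for OsmiR-212 and 28, 58 and 37 for OsmiR-48 at 0, 12 and 24 HAI. The distances carry no limits of counting error, so which miRNA is nearest is not resolved. Taken alone, osa-miR156dj was nearest to osa-miR319b (0.026), one of the abundant conserved miRNAs. osa-miR156l was nearest to OsmiR-68 (1.12), followed by osa-miR169c (1.23) and OsmiR-74 (1.27), at distances that show no close neighbour.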

How the data were processed

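Small RNAs of 18–30 nt from rice embryos at 0, 12 and 24 HAI were analysed, with 1 library per time point assigned by its label. The authors filtered the reads, mapped them with Bowtie to MSU 7.0, discarded rRNA, tRNA, snRNA and snoRNA of Rfam 11, and matched miRBase 21 with up to 2 mismatches, and predicted further miRNAs. The read counts and the TPM values were deposited side by side in a table of known and a table of predicted miRNAs. In all 407 rows the deposited TPM equalled the counts over the genome-mapped reads, times 1000000 (relative tolerance 1e-06). Folding scores (MFE in kcal/mol, MFEI) and the percent G+C of the predicted precursors were computed by the authors. The known table holds its 83 rows in 2 copies, of which the first was used. A single unnamed predicted sequence was left out.

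Each mature sequence was counted once. The members and lists were chosen with earlier results of these data known. All members, predicted miRNAs in their hairpins and the 3 nearest time courses were named. Ratios and odds ratios were given exact conditional 95% limits. With 1 library per group, edgeR's test could not be fitted, and edgeR 4.0.16 and DESeq2 1.42.0 in R 4.3.3 gave scaling factors only. The study set each TPM against the highest of the 3 libraries, whereas 2-fold calls here compare 1 pair of libraries. For these calls a count of 0 was replaced by 3 reads, and no call was made where both counts were 3 or fewer and 1 of them was 0, a refinement set after the data were seen. Limits and calls were checked on simulated independent Poisson counts, the model that the limits assume. That check does not cover PCR amplification or differences between libraries. Precursors were folded with RNAfold 2.7.2, the tables were computed with scipy 1.17.1, pandas 2.3.3 and numpy 2.4.6 in Python 3.11.15, and figures were drawn with matplotlib 3.10.9. The genome and SPL target sites were not analysed here. The alternatives were the summed miRNA reads, TMM, DESeq2 size factors, 1 added read, a minimum of 10 reads, known miRNAs alone, every table row counted and the 5p forms alone.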

Additional observations from a re-analysis of the deposited data

How the results depend on the processing

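Of 129 alternative values, 56 stayed within the counting limits of the reported value (counts within 1.5 times), 39 moved beyond them and 34 turned a ratio whose limits exclude 1. Among the 56, 3 ratios of OsmiR-88 for 12 over 0 HAI also crossed 1, from limits that include it. The turns came with the scalings to miRNAs in place of genome-mapped reads. Some turned values have limits that include 1, so their direction is not resolved. For 12 over 0 HAI these were miR529 by TMM (0.733–1.08) and DESeq2 (0.711–1.05), and miR535 by DESeq2 (0.961–1.02). For 24 over 0 HAI it was OsmiR-55 by summed miRNA reads (0.538–1.62). The cause of the difference between scalings was not tested. Ratios are given for 12 over 0, 24 over 0 and 24 over 12 HAI in turn. Scaled to summed miRNA reads, they were 0.847, 0.773 and 0.913 for miR156, 0.854, 0.819 and 0.959 for osa-miR156abcei, 0.840, 0.735 and 0.874 for osa-miR156dj, 0.813, 1.46 and 1.79 for miR529, and 0.936, 0.663 and 0.709 for miR535. With TMM they were 0.924, 0.883 and 0.956 for miR156, 0.918, 0.840 and 0.915 for osa-miR156dj, and 1.02, 0.758 and 0.742 for miR535. TMM gave 0.932, 0.936 and 1.004 for osa-miR156abcei, and 0.888, 1.66 and 1.87 for miR529. With DESeq2 size factors they were 0.897, 0.889 and 0.992 for miR156, 0.890, 0.845 and 0.950 for osa-miR156dj, and 0.991, 0.763 and 0.770 for miR535. DESeq2 gave 0.904, 0.943 and 1.04 for osa-miR156abcei, and 0.861, 1.67 and 1.94 for miR529. OsmiR-55 turned to 0.922 for 24 over 0 HAI by summed miRNA reads. The alternatives for OsmiR-55, OsmiR-68 and OsmiR-88 were chosen after seeing the data. The count of miRNAs past 2-fold for 24 over 0 HAI was 150 by TPM, 82 by summed miRNA reads and 86 by both TMM and DESeq2, and for 12 over 0 HAI it was 113, 60, 59 and 58 in that order. Among known miRNAs alone it was 27, 34 and 10 for 12 over 0, 24 over 0 and 24 over 12 HAI. The members' share was 30.9%, 26.2% and 23.4% of known miRNA reads at 0, 12 and 24 HAI, and 52.1%, 47.1% and 45.1% when every table row was counted. No paired analysis was possible because each time point has a single library. osa-miR156l had 3 reads at 0 HAI, and its ratio of 24 over 0 HAI was 42.0 with 1 read added to each count.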
